A study of Danio rerio with 6 samples.

Results

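Endothelial cells hold together through adherens junctions built on a vessel-specific cadherin and through tight junctions built on claudins, and surface receptors and adaptor proteins pass signals from these contacts into the cell. A group of 8 genes of endothelial adhesion, surface, signalling and secreted proteins was named by symbol: cdh5, esama, cldn5a, cldn5b, clec14a, egfl7, she and yrk. In a table of 19722 zebrafish genes, 7 of the 8 were listed under that symbol, each with 1 identifier. The row of clec14a carried no symbol. It was found by its identifier through a separate gene name list, and its value is given apart from those of the other 7.

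The libraries came from GFP-positive cells sorted at the 15-somite stage from Gt(endocard:egfp) embryos (3 libraries) and from Tg(fli1a:egfp) embryos (3 libraries). The genotype is labelled WT for all 6, and each line carries its own GFP reporter. Gt(endocard:egfp) stands for Gt(SAGFF27C); Tg(4xUAS:egfp), a gene-trap line in which a trapped Gal4 activator switches on GFP in endocardial progenitors. Its cells were sorted from the upper GFP gate, since the reporter is also faintly active in heart muscle. The paper also describes a few labelled cells of this line as likely myeloid, at a slightly later somite stage. Tg(fli1a:egfp) labels endothelial cells together with the endocardium and blood cells, so the sorted populations overlap in cell type. The value used for each gene is the authors' mean in log2 CPM, that is reads of the gene scaled to the size of the library. Its unit and its cover of all 6 libraries were read from the column name, as the limma software writes it. No label states either. The mean joins both lines into 1 number. No value of a single library and no value of a single line was analysed here, so none of the means has a spread. Which of the 8 genes differ between the lines was not analysed here. For cdh5 the paper reports no statistically significant fold change between the lines, which does not show that its levels are equal. The depth of the libraries is unknown from the values used.

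A CPM value here is a share of reads and was not divided by transcript length. A long transcript gives more reads than a short one at equal copy number, so the values place each gene in the table by its reads and set no order of transcript copies between genes. Over the whole table the authors' mean had a median of 2.58 log2 CPM (5.98 CPM) and an upper quartile of 4.93 log2 CPM (30.5 CPM). The 7 genes listed under their symbol had a median of 7.23 log2 CPM. All 7 lay above the median of all genes, and 5 lay above the upper quartile. With clec14a these counts were 8 of 8 and 6 of 8.

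**Figure D1:**
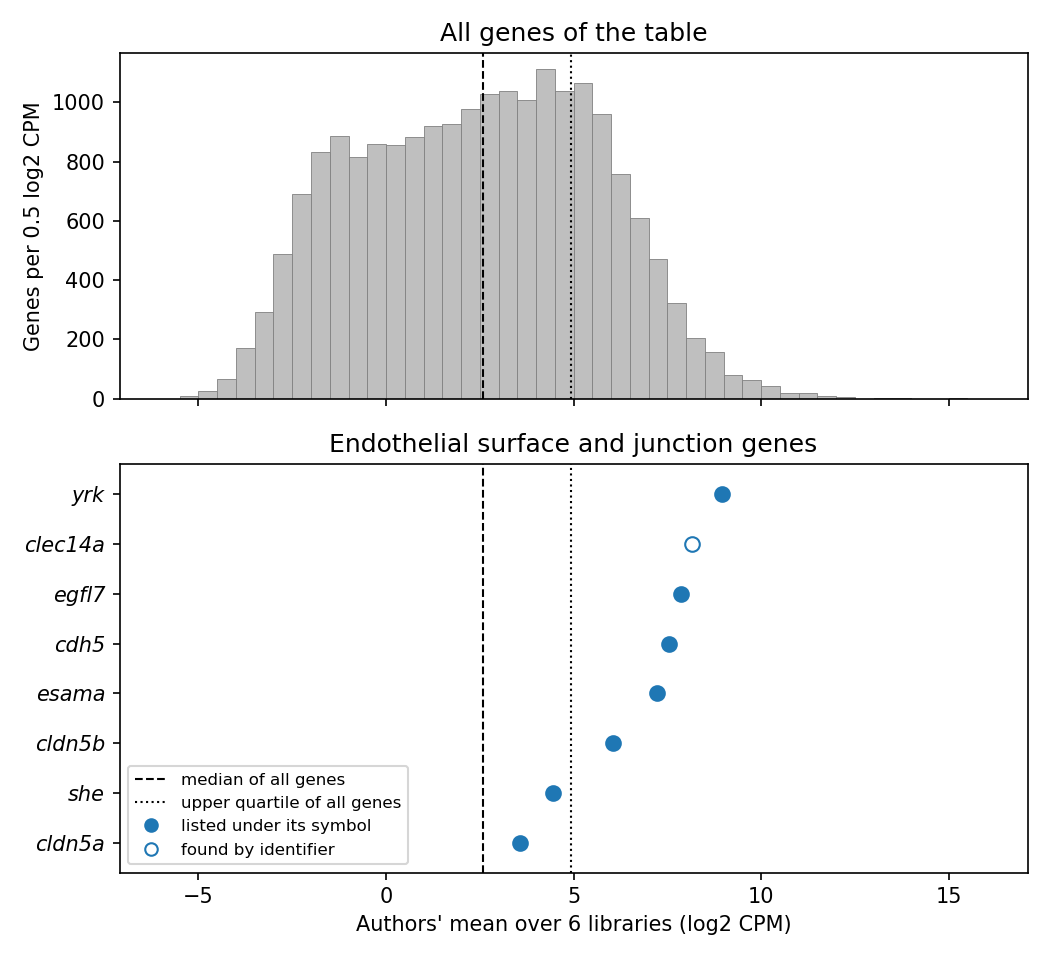
Authors' mean level over 6 libraries in log2 CPM on the horizontal axis, not divided by length. The upper panel counts all 19722 genes of the table in steps of 0.5 log2 CPM, and the lower panel has a point for each of the 8 genes, with clec14a as an open point because it was found by its identifier. The dashed line is the median of all genes at 2.58 and the dotted line is their upper quartile at 4.93, below which only the points of cldn5a and she lie.

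Among the adhesion genes, cdh5 (ENSDARG00000075549) encodes VE-cadherin, the adherens junction cadherin of endothelial cells. Its authors' mean was 7.54 log2 CPM, or 186 CPM, at percentile 95.5 of all genes. esama (ENSDARG00000077039) encodes an immunoglobulin-type adhesion molecule of endothelial contacts, and its authors' mean was 7.23 log2 CPM, or 150 CPM, at percentile 94.1. By reads, 896 of the 19722 genes lay above cdh5 and 1168 above esama.

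cldn5b (ENSDARG00000014059) had an authors' mean of 6.04 log2 CPM, or 65.7 CPM, at percentile 86.3 of all genes. cldn5a (ENSDARG00000043716) had 3.56 log2 CPM, or 11.8 CPM, at percentile 60.3. The pair encodes zebrafish counterparts of claudin-5, the tight junction protein of mammalian brain vessels, and reads from sequence they share could have been assigned to either gene. Symbols that start with cldn, these included, numbered 17 among the listed genes, with a median of 2.66 log2 CPM. This rule by symbol also takes in cldnd1a and cldnd1b. Of the 17, 9 lay above the median of all genes and 3 above the upper quartile (cldn12, cldn5b and cldn7b). By reads, cldn12 was the highest of these 17 at 102 CPM. The lowest of them was cldn7a at 0.0829 CPM, near the bottom of the table at percentile 1.2 of all genes. With the gene name list, searched for names in lower case only, 30 such rows were found. Those without a symbol in the table were not ranked or counted here.

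The surface and secreted genes egfl7 and clec14a lay above the upper quartile of all genes. egfl7 (ENSDARG00000100657) encodes a secreted protein with EGF-like domains that endothelial cells lay down around growing vessels. Its authors' mean was 7.87 log2 CPM, or 233 CPM, at percentile 96.5. clec14a (ENSDARG00000103533), found by its identifier, encodes a C-type lectin-like surface glycoprotein of endothelial cells, and its authors' mean was 8.15 log2 CPM, or 284 CPM, at percentile 97.3. The multimerin genes mmrn2a and mmrn2b, related to the matrix protein that binds CLEC14A in mammals, were listed at 9.68 CPM and 8.28 CPM.

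The adaptor and kinase genes lay far apart in the table. yrk (ENSDARG00000004378), listed by the authors under the symbol of a Yes-related kinase of the Src family, had an authors' mean of 8.96 log2 CPM, or 499 CPM, at percentile 98.7. By reads, 253 genes of the table lay above it. The gene name list gives this identifier the symbol FGR, also that of a Src family kinase, just as it gives esama, egfl7 and both cldn5 genes symbols in capitals (ESAM, EGFL7 and CLDN5). she (ENSDARG00000087956) encodes an SH2-domain adaptor of the SHB family. Its authors' mean was 4.45 log2 CPM, or 21.9 CPM, at percentile 69.9, under the upper quartile of all genes.

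Related genes were counted in lists by family or role, without the 8 genes themselves where a list is not that of the claudins. Only rows with a symbol were counted and ranked, and genes with a symbol lay higher than all genes. The share of all genes with a symbol above the median or the upper quartile was not computed. Of 21 junction partners, which include catenins, zonula occludens proteins and junctional adhesion molecules, 20 were listed under their symbol in 21 rows, since vcla has 2 identifiers. Their median was 4.66 log2 CPM, and 15 of the 21 rows lay above the median of all genes. By reads the highest was ctnnb1 at 1312 CPM. It encodes beta-catenin, the protein that links cadherins to the cytoskeleton and relays Wnt signals. The lowest was 1 of the rows of vcla, which encodes vinculin, at 0.834 CPM. The other row of vcla stood at 20.9 CPM. Among 6 other classical cadherins listed, 4 lay above the median of all genes. They ran from 383 CPM for cdh6 to 0.433 CPM for cdh4, and cdh1, the epithelial cadherin, stood at 69.6 CPM.

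Of 23 other endothelial receptors and surface genes, 15 were listed under their symbol, with a median of 4.99 log2 CPM, and 13 of the 15 lay above the median of all genes. Among these 15, the highest was tie1, an orphan receptor kinase of endothelial cells, at 240.0 CPM. The lowest of them was stab1, a scavenger receptor, at 2.80 CPM. With the gene name list, searched for names in lower case only, 21 rows of this list were found. Those without a symbol were not ranked. pecam1, another junctional adhesion gene of endothelial cells, stood at 3.13 CPM. Of 10 other Src family kinases, 7 were listed in 8 rows with a median of 1.85 log2 CPM. None of the 8 rows lay above the upper quartile of all genes. The highest was 1 of the rows of lyn at 22.1 CPM and the lowest was blk at 0.518 CPM. Of the SHB family adaptors, shdb and shda were listed at 19.0 CPM and 1.37 CPM.

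**Figure D2:**
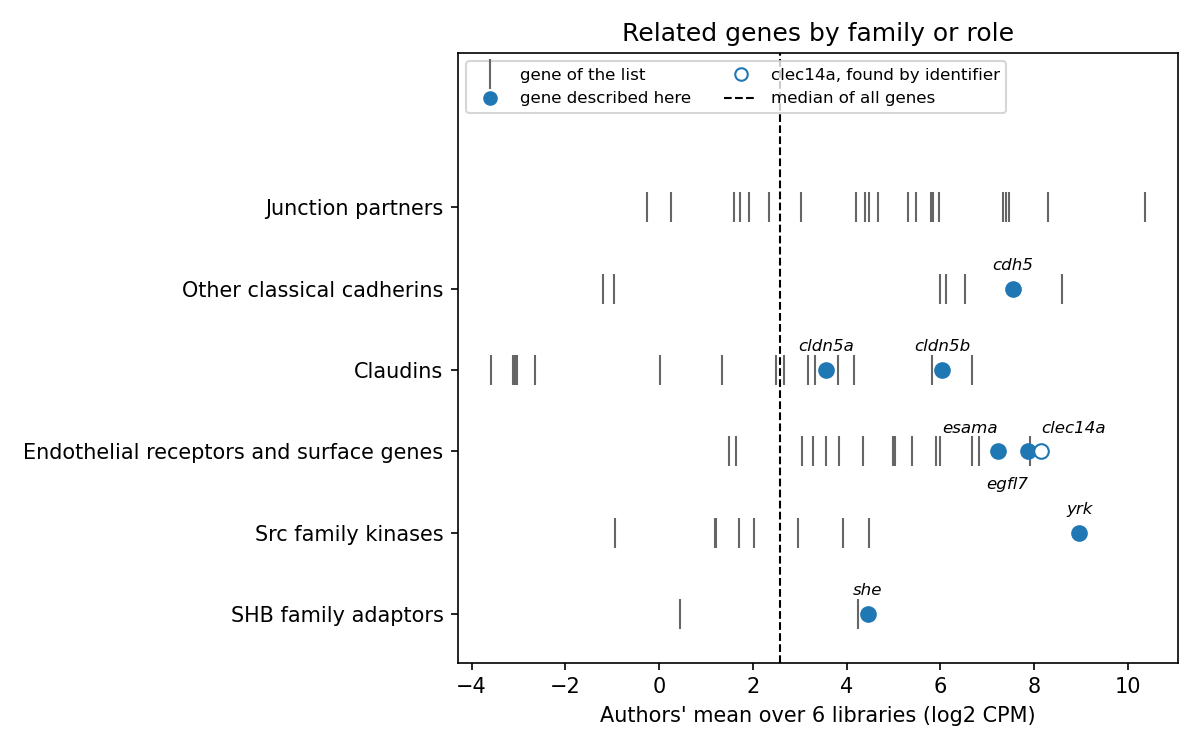
Authors' mean level over 6 libraries in log2 CPM on the horizontal axis, not divided by length, with 1 line for each list of related genes. Each tick is a listed gene, filled points are the genes described here placed beside the list of their family or role, and the open point is clec14a; the dashed line is the median of all genes at 2.58. Of the ticks of the other endothelial receptors and surface genes 13 of 15 lie to the right of the dashed line, and of those of the junction partners 15 of 21.

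Markers of the labelled tissues were read at the level of the joined mean, which cannot show the lines apart. Of 11 pan-endothelial markers chosen, 10 were listed under their symbol, among them cdh5 and egfl7. All 10 lay above the upper quartile of all genes, with fli1a at 1194 CPM the highest and sox18 at 51.7 CPM the lowest. kdrl, the other marker chosen, was not listed under its symbol and was not ranked. The 3 endocardial markers ran from 751 CPM for fn1a to 22.6 CPM for nfatc1, and 2 of the 3 lay above the upper quartile. These levels are no independent check of the tissues. The paper came to hapln1b through these same data and reports fn1a and nfatc1, known markers, as enriched in the Gt(endocard:egfp) cells. fli1a names the reporter by which 1 line was sorted, and cdh5 and egfl7 are among the 8 genes. Markers of other cells were also read, again only in rows with a symbol and without a matched share of all such rows. The 6 epidermal markers listed all lay above the upper quartile, with krt4 the highest at 1633 CPM. So did 6 of 9 red blood markers, 3 of 6 myeloid, 2 of 6 neural and 1 of 4 notochord and neural crest markers. Of the myocardial markers 1 of 8 did, and of the skeletal muscle markers 0 of 6. The myeloid markers ran from 1446 CPM for cebpa to 2.52 CPM for mpx, with spi1b at 935 CPM. Red blood markers ran from 480 CPM for urod to 1.81 CPM for klf1. cdh1, which epidermal cells carry, is in both the cadherin and the epidermal list. The share of the reads of the 8 genes that came from each cell type was not tested, and in sorted bulk RNA fewer cells of a type and less RNA per cell cannot be told apart.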

How the data were processed

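GFP-positive cells of 2 zebrafish lines were sorted at the 15-somite stage, and RNA of 3 libraries per line was sequenced after Smart-seq2 amplification of 2 ng, a PCR method without molecular identifiers. Alignment to GRCz11 and counting per gene were done by the authors with Rsubread, followed by limma. Tool versions, any filter, the scaling and the model are not given in the sources used here. The deposited mean of each gene is read as limma writes it, over all libraries and in log2 CPM not divided by gene length. No label gives its unit or its libraries. The other 7 number columns hold the authors' own comparison of the lines (fold change with limits, test statistics, p-values) and were not used, so no test was run and no error can be given.

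The table was searched by symbol (14092 of 19722 genes have one). A gene name list held 18622 of the 19722 identifiers and was used to find genes whose row has no symbol. It was searched for names in lower case only. Rows without a symbol that it names in capitals were therefore missed, and counts made with it are minimum counts. CPM values are 2 raised to the authors' mean, and a percentile is the percent of genes at or below a value, checked on simulated data. Symbols of 8 genes were given, and related genes and marker lists were chosen by family and role, with earlier results of these data known. Named are the 8 genes, the highest and lowest of each list of related genes, genes of the families of the 8, and the multimerin genes. The cell type markers, pecam1 and cdh1 were singled out after their values were seen. The tools were pandas 2.3.3, numpy 2.4.6 and scipy 1.17.1, with plots by matplotlib 3.10.9, under Python 3.11.15. No sequence was used here.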

Additional observations from a re-analysis of the deposited data

How the results depend on the processing

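The median percentile of the 7 genes listed under their symbol was 94.1 among all genes, 92.7 among the genes with a symbol and 92.0 among the 14582 genes of at least 1 CPM. With clec14a, a choice made after seeing the data, it was 94.8. Across the same choices cldn5a moved the most of the 8 genes: it stood at percentile 60.3 among all genes and at 46.3 among those of at least 1 CPM, under their median. Of the related genes in the lists, 64.2% of 67 rows lay above the median of all genes. When genes without a symbol were added through the gene name list, 65.5% of 87 rows did. The added genes included 13 whose name starts with cldn in lower case, and genes that the list names in capitals were not added. That addition was also chosen after seeing the data. The 67 rows all have a symbol, and genes with a symbol lay higher than all genes. cldn5a, for example, stood at percentile 52.0 among genes with a symbol and 60.3 among all. The share of all genes with a symbol above that median was not computed, so 64.2% is not read as a surplus. Levels per kilobase of coding sequence were planned but not run, since no protein or transcript lengths were used here. No paired analysis was possible because the table of gene values holds none for a single library. For the same reason the planned comparison of the lines was not run, nor its other normalization, its filter and the omission of single replicates.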
